A study of Mus musculus with 24 samples.

Results

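Lysosomal hydrolases and lipid storage genes were followed as a fixed set of 31 mouse genes across the cell types of the brain and through the response of microglia to bacterial lipopolysaccharide (LPS). The genes were chosen by name: enzymes that break down sugars, sulfated sugars, lipids and proteins in the lysosome, with the proteins that move lipids out, sort enzymes in or regulate the compartment. They are spread over the genome: in RefSeq on GRCm38.p6 (mm10), Grn lies at chr11:102430507-102436809, Man2b1 at chr8:85082730-85098739, Npc2 at chr12:84754559-84773112 and Gaa at chr11:119267963-119285458. All 31 were present in each PAPERCLIP table, which lists 23871 genes by symbol, and in each RNA-seq table, which lists 47069 Ensembl identifiers.

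The data were 24 libraries, each with a whole-number count per gene. PAPERCLIP crosslinks mRNA to the poly(A)-binding protein, and the cTag version recovers a GFP-tagged form of that protein, here called Ctag-PABP, from the cells in which a Cre recombinase was expressed. Gfap-Cre, Gad2-Cre and Camk2a-Cre cortex gave 2 libraries each, and Cx3cr1-Cre whole brain gave 2 untreated, 3 PBS and 3 LPS libraries, for which the labels give no dose or schedule. No age is labelled for any tagged mouse. The RNA-seq libraries, 3 per group, came from microglia of adult wild-type C57BL/6 mice that had received PBS or 1 mg/kg LPS daily for 4 days, pulled out on CD11b beads from 2 brains per tube, and from Ptbp2-KO cortex at E18.5. A single untagged liver library is labelled CL57/B6J. All tagged brain libraries, treated or not, carry a Cre driver and the tagged protein, so no PAPERCLIP brain library is from wild-type mice. In Cx3cr1-Cre brain the promoter is active in microglia and in other macrophages, and CD11b beads likewise bind both.

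The lysosome is the acidic compartment in which cells take apart material delivered from outside or by autophagy. Each hydrolase removes a particular chemical bond, and the loss of a single enzyme or lipid transporter leaves its substrate to accumulate, which is the basis of the lysosomal storage diseases. Microglia, the resident macrophages of the brain, clear debris and synaptic material and rely on this pathway. The transcription factor TFEB binds a short element named CLEAR, built around the letters CACGTG, upstream of many lysosomal genes.

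Promoter windows from RefSeq (build GRCm38.p6), 250 bases before to 50 bases after a gene's start, matched 27 of the 31 genes. A gene with several annotated starts has several windows. The letters CACGTG, which read the same on both strands, were in at least 1 window of 9 of these 27 genes, or 33.3%. The share was 8.09% of the 27025 genes with a window. By window, 9 of 32 (28.1%) held it, against 7.15% of all 32851. The longer run TCACGTGA, which contains CACGTG, was in 4 of 27 (14.8%), namely Gla, Cln3, Mcoln1 and Ctsa, and in 1.12% of all genes with a window. The other 5 genes with CACGTG were Gaa, Glb1, Naglu, Sgsh and Arsa. These matches describe the letters only. The following 4 stretches are examples, with pairs of matches in Gla and Mcoln1 and single matches in Glb1 and Naglu. Cln3 also holds a pair, 149 and 121 bases before a start, and Ctsa a match on each side of a start. In both genes these lie in only 1 of 2 windows, at a start inside the annotated gene. Neither is shown. Of the 4 shown, Gla, Glb1 and Naglu rose with LPS in isolated microglia and Mcoln1 was not called. Of all 9 genes with CACGTG, 4 rose there, as did 12 of the 18 with a window but no CACGTG and 15.9% of all tested genes. The full gene list was not split by motif, so no conclusion on the motif is drawn from these counts. Capitals mark CACGTG or, where present, TCACGTGA, and each stretch is written in the direction of its gene.
Gla, GRCm38.p6 chrX:134601154-134601255, minus strand, CACGTG 227 and 194 bases before the start: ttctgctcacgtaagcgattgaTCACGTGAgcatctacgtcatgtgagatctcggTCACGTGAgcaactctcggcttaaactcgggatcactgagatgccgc
Mcoln1, GRCm38.p6 chr8:3500408-3500518, plus strand, CACGTG 71 and 45 bases before the start: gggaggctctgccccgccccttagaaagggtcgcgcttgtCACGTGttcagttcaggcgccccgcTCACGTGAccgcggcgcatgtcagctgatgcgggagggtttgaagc
Glb1, GRCm38.p6 chr9:114400990-114401075, plus strand, CACGTG 48 bases before the start: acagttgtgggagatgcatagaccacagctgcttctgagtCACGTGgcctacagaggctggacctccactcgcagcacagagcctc
Naglu, GRCm38.p6 chr11:101069981-101070066, plus strand, CACGTG 73 bases before the start: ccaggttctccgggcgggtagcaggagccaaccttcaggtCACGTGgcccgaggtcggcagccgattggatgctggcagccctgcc

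The untreated and PBS Cx3cr1 libraries were the shallowest from brain. Totals were 133456 and 154959 counts in the untreated Cx3cr1 libraries, 266330 to 337770 after PBS, 679115 to 1041245 after LPS and 630475 to 2005627 in the tagged cortex. Microglial RNA-seq held 1250170 to 2133407 counts. Depth in Cx3cr1 PAPERCLIP thus moved with treatment, and its part in the LPS results was not tested beyond thinning every library to the shallowest total. The summed level of 12 microglial markers was 2.84% to 4.35% across the 8 Cx3cr1 libraries, against at most 0.0138% in the tagged cortex. Astrocyte markers took 2.49% and 2.92% in the Gfap libraries, where 8 oligodendrocyte markers took 0.132% in replicate 1 and 0.954% in replicate 2. Among the treated Cx3cr1 libraries, PBS replicate 3 stood apart, with 0.287% of counts in pan-neuronal markers and 0.190% in hepatocyte markers, against at most 0.0565% and 0.00368% in the other 5.

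In PAPERCLIP, the summed counts of the 31 genes took a larger share in the Cx3cr1 libraries than in any other library. They took 0.711% and 0.787% of counts in the untreated Cx3cr1 libraries, 0.206% and 0.208% in Camk2a, 0.279% and 0.283% in Gad2, and 0.236% and 0.273% in Gfap, so the microglial libraries did not overlap with any cortical library. In isolated microglia the share was 1.31%, 1.32% and 1.33% after PBS and 1.95%, 1.84% and 1.93% after LPS. In Cx3cr1 PAPERCLIP it was 0.583%, 0.620% and 0.547% after PBS and 0.643%, 0.640% and 0.751% after LPS, again without overlap. The gene with the most counts differed by cell type in PAPERCLIP: Tpp1 in both Gfap libraries and Gaa in all 4 neuronal libraries. In the Cx3cr1 libraries it was Arsb, M6pr or Man2b1, which varied between replicates. In RNA-seq it was Psap in all 9 libraries, from microglia and embryonic cortex alike. PAPERCLIP counts and RNA-seq counts depend differently on transcript length, so these shares were compared only within an assay. Because these are bulk samples, fewer cells of a type and less RNA per cell cannot be told apart.

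**Figure D1:**
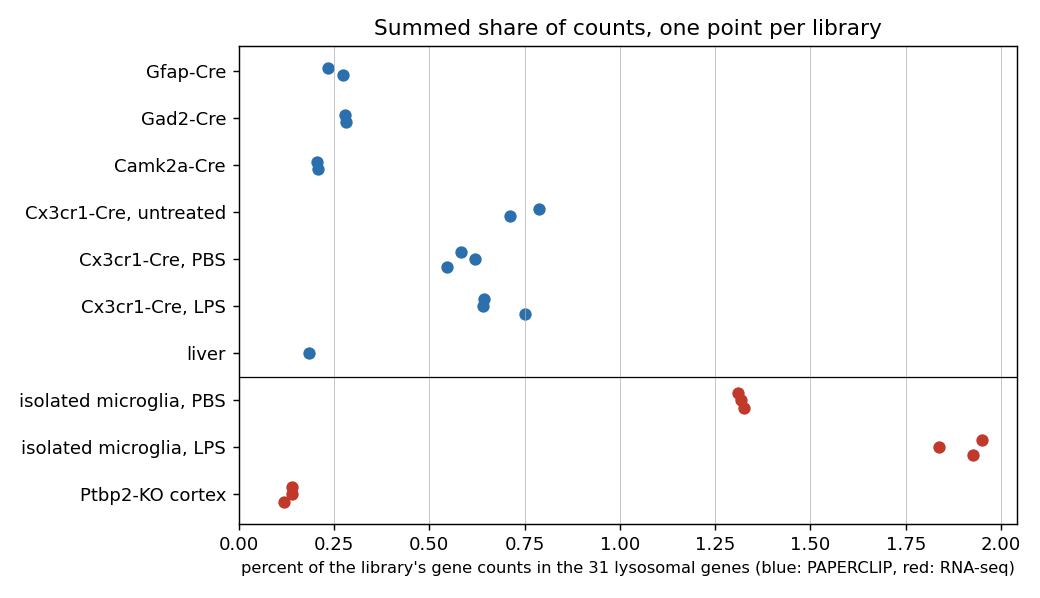
Percent of each library's gene counts that fell in the 31 lysosomal genes (horizontal axis, one point per library) for each group; blue points are PAPERCLIP and red points RNA-seq. Untreated Cx3cr1 libraries lie at 0.711% and 0.787%, above every cortical PAPERCLIP library, and isolated microglia lie higher after LPS (1.84% to 1.95%) than after PBS (1.31% to 1.33%).

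Of the 31 genes, 27 had enough counts to be tested between untreated cell types. Naglu, Galns, Cln3 and Tfeb did not. Tfeb, the regulator itself, had 2 counts in the 8 untreated libraries together, both in Gfap, and Galns had 3, all in Gad2. Levels below are normalised CPM, that is counts brought to a common library size by the trimmed mean of M-values (TMM). Differences are on the log2 scale with their standard error (SE), and adjusted p is that of edgeR's quasi-likelihood test over all genes, called at 0.05.

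In microglia, the untreated Cx3cr1 libraries, 19 of the 27 tested genes were higher than the average of the 3 cortical lines and 2 were lower. Over all 9421 genes tested, 21.8% were higher and 28% lower. The median log2 difference was 1.78 over the 27 genes and -0.48 over all genes. A gene could be tested on its counts in a single group. Gusb, Hexa and Grn, which were low in cortex, entered the 27 through the Cx3cr1 libraries. With no filter on counts, 18 of 31 genes were higher and 3 lower, with 2250 and 3043 of all 15109 genes. The medians were then 1.45 and -0.79. By role, 7 of 10 tested glycosidases, 2 of 4 sulfatases, both lysosomal proteases (Tpp1 and Ctsa) and 3 of 4 lipid or thioester hydrolases were higher. So were 3 of 4 cholesterol export and activator proteins and 2 of 3 membrane or receptor proteins. Among the genes called higher, Tpp1, Npc1, Manba and Scarb2 overlapped with the cortical libraries. Mean levels in Cx3cr1 and Gfap were 541 and 508 CPM for Tpp1 and 124 and 120 CPM for Npc1. They were 54.6 and 20.6 CPM for Manba and 106 and 142 CPM for Scarb2. Microglia were not tested against Gfap alone. Cx3cr1 libraries came from whole brain and the others from cortex, so cell type and brain region cannot be told apart.

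Several enzymes that trim sugars from glycoproteins and matrix chains were far higher in microglia. Man2b1, the lysosomal alpha-mannosidase, measured 1083 and 903 CPM in the 2 Cx3cr1 libraries and 24.7 to 36.8 CPM in the 6 cortical ones, a log2 difference of 5.09 (SE 0.20, adjusted p = 1.86e-13). Gusb, the beta-glucuronidase, measured 269 and 162 CPM, while the cortical libraries ranged from 0 to 8.66 CPM, for a log2 difference of 6.75 (SE 0.49, adjusted p = 1.72e-09). Hexa, the alpha subunit of beta-hexosaminidase, measured 109 and 125 CPM against 0 to 7.21 CPM (log2 difference 5.44, SE 0.49, adjusted p = 3.3e-08). For all 3 the microglial libraries lay above every cortical one. Of the 27 tested genes 17 did not overlap in this comparison, and the share over all genes was not computed. Among sulfatases, Arsb, which acts on dermatan sulfate, measured 2434 and 1262 CPM against 132 to 282 CPM (log2 difference 3.20, SE 0.24, adjusted p = 1.94e-09). Arsa, which acts on the myelin lipid sulfatide, measured 342 and 286 CPM against 31 to 93.9 CPM (log2 difference 2.57, SE 0.24, adjusted p = 4.96e-08).

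The genes that deliver enzymes or bind and activate their substrates divided. M6pr, the cation-dependent mannose phosphate receptor that carries new enzymes to the lysosome, measured 1613 and 1497 CPM in microglia and 134 to 193 CPM in the cortical libraries (log2 difference 3.24, SE 0.19, adjusted p = 8.77e-11). Grn, the precursor of granulins, measured 218 and 88.1 CPM against 0.501 to 5.77 CPM (log2 difference 5.83, SE 0.48, adjusted p = 9.42e-09). Both lay clear of the cortex. Ctsa, the protective protein that stabilises beta-galactosidase and sialidase, measured 465 and 602 CPM against 47.8 to 154 CPM (log2 difference 2.65, SE 0.21, adjusted p = 6.05e-09). Psap, the precursor of the saposins that present lipids to hydrolases, measured 523 and 272 CPM in microglia and 305 to 464 CPM in cortex, with overlapping groups and a log2 difference of 0.06 (SE 0.27, adjusted p = 0.866). Thinned to the shallowest library, Psap was called higher (log2 difference 0.64, adjusted p = 0.0452). Mcoln1, a lysosomal calcium channel, measured 21.8 and 44.0 CPM against 22.7 to 64.6 CPM and did not pass either (log2 difference -0.25, SE 0.51, adjusted p = 0.708).

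Of the cholesterol genes, Npc2 and Lipa were clear of the cortex and Npc1 was not. Npc2, which hands cholesterol to the membrane protein Npc1, measured 182 and 169 CPM in microglia and 1.5 to 102 CPM in the cortical libraries (log2 difference 3.62, SE 0.33, adjusted p = 3.62e-08). Lipa, the acid lipase that frees cholesterol from its esters, measured 87.2 and 80.7 CPM against 11.0 to 53.2 CPM (log2 difference 1.70, SE 0.42, adjusted p = 0.00256). Npc1 measured 225 CPM in replicate 1 and 22.0 CPM in replicate 2, against 12.5 to 142 CPM in cortex, with a log2 difference of 1.65 (SE 0.50, adjusted p = 0.0104). Npc1 rested on a single library: without Cx3cr1 replicate 1 the difference was -1.01 (adjusted p = 0.326). Without that replicate Manba (-0.40), Idua (2.17), Ppt1 (0.89) and Neu1 (1.31) also lost their calls, and without replicate 2 Neu1 (0.66) and Scarb2 (0.77) lost theirs. Neu1 lost its call under 11 of 16 alternatives. Monocyte, border macrophage and neutrophil markers took 0.0749% and 0.215% of counts in the 2 untreated Cx3cr1 libraries and at most 0.000109% in cortex, and their part in these differences was not tested.

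Gaa and Smpd1 were lower in microglia, and Ids, which was not called (log2 difference -0.71, adjusted p = 0.063), was called lower under 7 of 16 alternatives. Gaa, the acid alpha-glucosidase that digests glycogen, measured 72.7 and 58.7 CPM in microglia and 286 to 1147 CPM in the cortical libraries, without overlap (log2 difference -2.91, SE 0.33, adjusted p = 5.09e-07). Smpd1, the acid sphingomyelinase, had 3 counts in the 2 microglial libraries, at 0 and 22.0 CPM, against 62.1 to 116 CPM (log2 difference -3.02, SE 0.63, adjusted p = 0.000561). The size of the Smpd1 difference is poorly fixed at 3 counts: it was -2.18 without replicate 1 and -9.72 without replicate 2, and the call held in both.

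**Figure D2:**
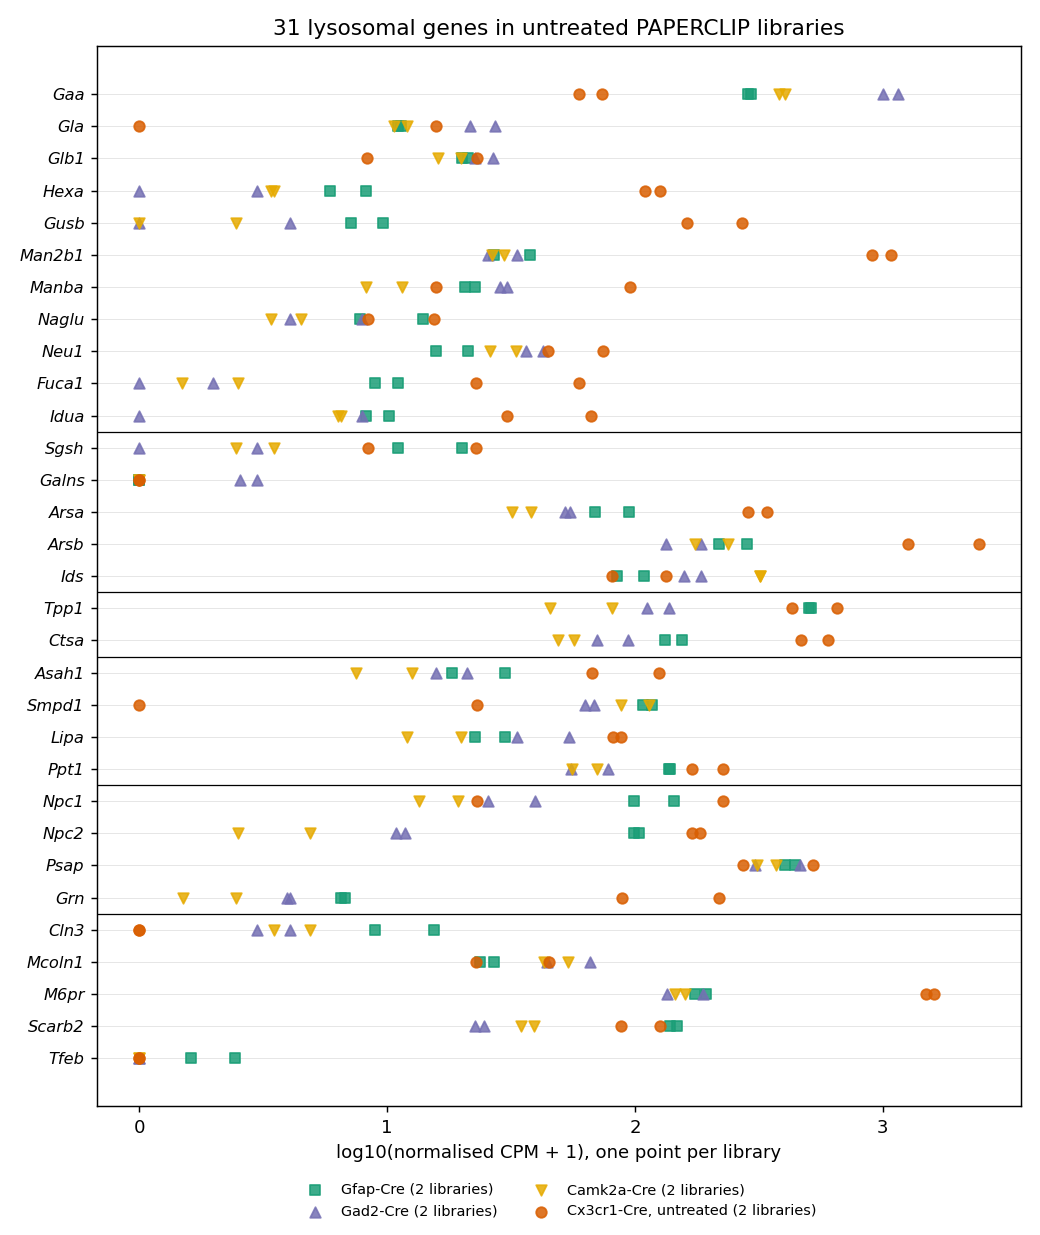
Level of each of the 31 genes (rows, grouped by horizontal lines into glycosidases, sulfatases, proteases, lipid and thioester hydrolases, cholesterol export and activator proteins, and membrane, receptor and regulator genes) as log10(normalised CPM + 1), with one point per untreated library and 2 libraries per cell type. Cx3cr1 points lie to the right of all others for Man2b1, Gusb, Hexa, Grn, M6pr and Arsb, and to the left for Gaa and Smpd1; for Psap and Mcoln1 the Cx3cr1 range overlaps that of the cortical libraries.

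Gfap-tagged cells, which had the highest share of astrocyte markers, carried more of the cholesterol export and protease transcripts than neurons. Against the average of Gad2 and Camk2a neurons, 13 of the 27 tested genes were higher and 4 lower in Gfap, while 31.3% and 29.3% of all tested genes were. The median difference was 0.83 over the 27 genes and 0 over all genes. Hexa, Gusb and Grn, counted here as higher, were tested through their counts in the Cx3cr1 libraries. With no filter on counts, 13 of 31 genes were higher and 4 lower, with 3489 and 3018 of all 15109 genes. Oligodendrocyte markers also moved with this comparison: all 7 tested were higher in Gfap, and the list took at most 0.0390% of counts in the neuronal libraries, against the 0.132% and 0.954% in Gfap given above. Their part in the result was not tested beyond leaving out each Gfap library. Npc2 measured 102 and 98.2 CPM in Gfap and 1.5 to 10.8 CPM in the 4 neuronal libraries (log2 difference 4.21, SE 0.28, adjusted p = 1.96e-10). Npc1 measured 98.1 and 142 CPM against 12.5 to 38.5 CPM (log2 difference 2.45, SE 0.34, adjusted p = 4.09e-06). Tpp1, a tripeptidyl peptidase, measured 512 and 504 CPM against 44.4 to 136 CPM (log2 difference 2.53, SE 0.23, adjusted p = 2.22e-08). Scarb2, the membrane protein that carries glucocerebrosidase to the lysosome, measured 137 and 147 CPM against 21.5 to 38.2 CPM (log2 difference 2.31, SE 0.21, adjusted p = 1.27e-08). None of these 4 genes, picked by small p, overlapped between Gfap and neurons. Of the 27 tested genes 17 did not overlap, and the share over all genes was not computed.

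Ctsa and Sgsh were also higher in Gfap. Ctsa measured 131 and 154 CPM against 47.8 to 92.7 CPM (log2 difference 1.14, SE 0.21, adjusted p = 0.000104), and Sgsh, the heparan sulfamidase, 10.1 and 19.0 CPM against 0 to 2.50 CPM (log2 difference 3.26, SE 0.58, adjusted p = 7.54e-05). The other 7 higher genes were Ppt1, Fuca1, Arsa, Gusb, Asah1, Hexa and Grn, with log2 differences of 0.97 to 3.31. Fuca1, Gusb, Hexa and Grn had 13 to 20 counts in Gfap and 5 to 12 in neurons. The Grn level was 5.77 and 5.52 CPM in Gfap and 0.501 to 3.08 CPM in neurons, and its call was marginal (log2 difference 1.62, SE 0.69, adjusted p = 0.0497).

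Neurons had more of 4 genes. Gaa measured 286 and 293 CPM in Gfap and 380 to 1147 CPM in neurons (log2 difference -1.17, SE 0.22, adjusted p = 0.000142). Ids, the iduronate sulfatase that acts on heparan and dermatan sulfate, measured 108 and 84.0 CPM against 157 to 318 CPM (log2 difference -1.30, SE 0.23, adjusted p = 5.7e-05). Mcoln1 measured 26.0 and 22.7 CPM against 42.1 to 64.6 CPM (log2 difference -1.06, SE 0.28, adjusted p = 0.00311), and Neu1, the sialidase, 20.2 and 14.7 CPM against 25.1 to 41.4 CPM (log2 difference -0.99, SE 0.31, adjusted p = 0.00895). In all 4 the neuronal libraries lay above both Gfap libraries. Without Gfap replicate 2, which had the higher oligodendrocyte share, Arsa (log2 difference 0.69), Asah1 (0.49), Hexa (2.00), Grn (1.67), Neu1 (-0.71) and Mcoln1 (-0.93) were no longer called. Hexa lost its call under 9 and Grn under 10 of 16 alternatives. When libraries were scaled by total counts only, the all-gene median was -0.21 instead of 0, and 10 of the 27 genes were higher and 4 lower, against 26.8% and 34.1% of all genes.

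M6pr, Psap and Lipa were not called between Gfap and neurons. M6pr measured 173 and 193 CPM in Gfap and 134 to 188 CPM in neurons (log2 difference 0.24, SE 0.22). Psap measured 403 and 442 CPM against 305 to 464 CPM (log2 difference 0.23, SE 0.24), and Lipa 21.6 and 28.8 CPM against 11.0 to 53.2 CPM (log2 difference 0.03, SE 0.30). All 3 overlapped.

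Between the neuron classes, 6 of the 27 genes were called. Camk2a neurons, which are excitatory, were higher in 1 and lower in 5 of the 27 tested genes than Gad2 neurons, which are inhibitory, against 11.6% higher and 9.6% lower over all genes. The median difference was -0.44 over the 27 genes and 0.03 over all. Of the 12 microglial markers, 4 were lower in Camk2a as well (P2ry12, Csf1r, Sall1 and Gpr34), and the list took 0.00394% and 0.00404% of counts in Camk2a against 0.0138% and 0.0107% in Gad2. Their part in the result was not tested. Gaa measured 380 and 403 CPM in Camk2a and 1003 and 1147 CPM in Gad2 (log2 difference -1.46, SE 0.24, adjusted p = 0.000172), and it kept its call under each of 16 alternatives. Ids went the other way, at 318 and 317 CPM in Camk2a and 157 and 184 CPM in Gad2 (log2 difference 0.89, SE 0.24, adjusted p = 0.00978). The Ids call was lost when any 1 of the 4 neuronal libraries was left out, with log2 differences of 0.78 to 1.03.

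The other 4 genes lower in Camk2a were measured at low counts or closer together. Lipa measured 18.8 and 11.0 CPM in Camk2a and 32.3 and 53.2 CPM in Gad2 (log2 difference -1.55, SE 0.35, adjusted p = 0.00269). Manba, the beta-mannosidase, measured 7.25 and 10.5 CPM against 27.7 and 29.6 CPM (log2 difference -1.69, SE 0.44, adjusted p = 0.00886). Npc2 had 11 counts in Camk2a, at 3.86 and 1.5 CPM, and 17 in Gad2, at 10.8 and 9.86 CPM (log2 difference -1.87, SE 0.55, adjusted p = 0.0182). Tpp1 measured 44.4 and 80.1 CPM against 111 and 136 CPM (log2 difference -1.0, SE 0.30, adjusted p = 0.0224). No groups overlapped, but each of these 4 calls was lost when at least 1 neuronal library was left out. Of the genes not called, Psap, M6pr and Mcoln1 overlapped. Npc1 (18.4 and 12.5 against 24.6 and 38.5 CPM, adjusted p = 0.146) and Grn (4 against 5 counts, adjusted p = 0.342) did not. With 2 libraries against 2 this says little: 17 of the 27 genes did not overlap, and the share over all genes was not computed. These cell type comparisons share libraries, so their values are given side by side and were not counted against each other.

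In isolated microglia, 19 of the 31 genes rose after 4 days of LPS and none fell, while 15.9% of the 10267 genes tested rose and 10.4% fell. All 31 genes were tested. The median log2 difference was 0.37 over the 31 genes and -0.02 over all genes, and 28 of the 31 differences were above 0. By role, 9 of 11 glycosidases, 1 of 5 sulfatases, 1 of 2 proteases, 3 of 4 lipid and thioester hydrolases, 3 of 4 cholesterol export and activator proteins, and 2 of 5 membrane, receptor and regulator genes rose. When libraries were scaled by total counts only, the all-gene median was -0.13, all genes gave 1282 higher and 1641 lower instead of 1634 and 1072, and the 31 genes gave 14 higher and 1 lower.

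Grn had the smallest p of the set. It measured 1475, 1502 and 1504 CPM after PBS and 3708, 3540 and 3347 CPM after LPS, a mean of 1494 ± 16 against 3532 ± 181 (SD, n = 3 each), for a log2 difference of 1.24 (SE 0.10, adjusted p = 3.55e-06). Psap, the partner that binds progranulin in the secretory pathway, measured 3850, 3856 and 3692 CPM after PBS and 6129, 5498 and 6147 CPM after LPS (log2 difference 0.64, SE 0.10, adjusted p = 0.000575). In both genes every LPS library exceeded every PBS library.

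Cholesterol handling genes moved unequally. Npc2 measured 453, 426 and 411 CPM after PBS and 775, 740 and 771 CPM after LPS (log2 difference 0.83, SE 0.09, adjusted p = 2.88e-05), and Lipa 146, 148 and 148 CPM against 223, 213 and 220 CPM (log2 difference 0.57, SE 0.08, adjusted p = 0.000333). Npc1 measured 325, 294 and 331 CPM after PBS and 326, 326 and 376 CPM after LPS, which overlap (log2 difference 0.11, SE 0.09, adjusted p = 0.425). Npc2 and Lipa were thus separated by treatment and Npc1 was not. The other lipid hydrolases were Asah1, the acid ceramidase, and Ppt1, which removes palmitate from proteins. Asah1 rose by 0.46 on the log2 scale (SE 0.09, adjusted p = 0.00298) and Ppt1 by 0.35 (SE 0.09, adjusted p = 0.014). Smpd1 measured 80.6, 78.4 and 75.6 CPM after PBS and 69.5, 62.4 and 62.0 CPM after LPS, without overlap, and did not pass (log2 difference -0.28, SE 0.11, adjusted p = 0.0912); it passed as lower with total counts.

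Among the glycosidases, Glb1, the beta-galactosidase that acts on the ganglioside GM1 and on keratan sulfate, measured 78.1, 80.0 and 65.8 CPM after PBS and 149, 138 and 135 CPM after LPS (log2 difference 0.92, SE 0.11, adjusted p = 9.15e-05). Man2b1 measured 1308, 1234 and 1269 CPM against 2176, 1948 and 2354 CPM (log2 difference 0.77, SE 0.10, adjusted p = 0.000171). Naglu, which acts on heparan sulfate, measured 118, 124 and 131 CPM against 209, 212 and 183 CPM (log2 difference 0.70, SE 0.10, adjusted p = 0.000225). None of the 3 overlapped, nor did 24 of the 31 genes in this comparison, and the share over all genes was not computed. Gusb, Gla, Neu1, Manba, Fuca1 and Hexa also rose, with log2 differences from 0.34 (Hexa) to 1.18 (Gla, 49 counts after PBS and 103 after LPS). Gaa (0.22, adjusted p = 0.155) and Idua (0.37, adjusted p = 0.0711) did not pass.

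Among the sulfatases, Galns, which acts on keratan sulfate, was called, at 17.3, 17.9 and 20.7 CPM after PBS and 47.2, 72.2 and 43.6 CPM after LPS (log2 difference 1.57, SE 0.22, adjusted p = 0.000282). Galns overlaps the gene Trappc2l, and the library kit does not mark strand, so reads of the pair may be assigned to either. Arsa (log2 difference 0.02), Arsb (0.08), Ids (0.12) and Sgsh (-0.23) did not pass, with adjusted p of 0.305 to 0.953. Of the proteases, Ctsa rose from 908, 899 and 873 CPM to 1377, 1242 and 1344 CPM (log2 difference 0.57, SE 0.09, adjusted p = 0.000661). Tpp1 measured 422 to 455 CPM after PBS and 489 to 511 CPM after LPS and did not pass (log2 difference 0.20, SE 0.08, adjusted p = 0.0953).

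The regulator and the channel did not pass in isolated microglia. Tfeb measured 52.9, 56.7 and 47.9 CPM after PBS and 45.2, 48.8 and 59.5 CPM after LPS, which overlap (log2 difference -0.04, SE 0.15, adjusted p = 0.864). Mcoln1 measured 55.9, 62.1 and 49.0 CPM against 68.8, 57.1 and 62.0 CPM (log2 difference 0.17, SE 0.14, adjusted p = 0.39). M6pr rose modestly, from 238, 207 and 215 CPM to 298, 310 and 240 CPM, and Scarb2 from 571, 598 and 519 CPM to 764, 638 and 798 CPM. Their log2 differences were 0.36 (SE 0.11, adjusted p = 0.025) and 0.38 (SE 0.11, adjusted p = 0.0189). Cln3, a lysosomal membrane protein mutated in a childhood form of neuronal storage disease, did not pass (0.26, adjusted p = 0.0825). Of the 9 genes with CACGTG in a promoter window, 4 rose (median log2 difference 0.26). Of the 18 with a window but no CACGTG, 12 rose (median 0.38). Over all tested genes 15.9% rose, and that share was not split by motif.

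Calls for 12 of the 19 genes held under every alternative in which the gene was tested: Glb1, Gusb, Man2b1, Naglu, Galns, Asah1, Npc2, Grn, Psap, Lipa, Neu1 and Ctsa. Gla, Hexa, Ppt1, Manba, Fuca1, M6pr and Scarb2 each lost theirs under at least 1. Marker levels moved with treatment in these libraries, and a change in cell makeup and a change of expression within cells cannot be told apart here. The 12 microglial markers took 4.13% to 4.17% of counts after PBS and 2.80% to 3.40% after LPS, while monocyte, border macrophage and neutrophil markers took 0.0782%, 0.0856% and 0.168% after PBS and 0.121%, 0.122% and 0.110% after LPS. Of the 12 microglial markers 3 were called higher (C1qa, C1qb and Aif1) and 7 lower, among them P2ry12, Tmem119 and Cx3cr1. Of 9 tested markers on the second list, the monocyte genes Ly6c2 and Ccr2 were called higher and the border macrophage genes Mrc1 and Lyve1 lower. The part of these markers, or of the cells they mark, in the rise of lysosomal genes was not tested. Ttr, on the hepatocyte list, was at 7684 and 7145 CPM in PBS replicates 1 and 2 and at 1439 to 1846 CPM in the other 4 libraries. Without replicate 3 of both groups, 21 of the 31 genes were higher and none lower, while 1995 of all 10559 genes tested were higher and 1557 lower.

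**Figure D3:**
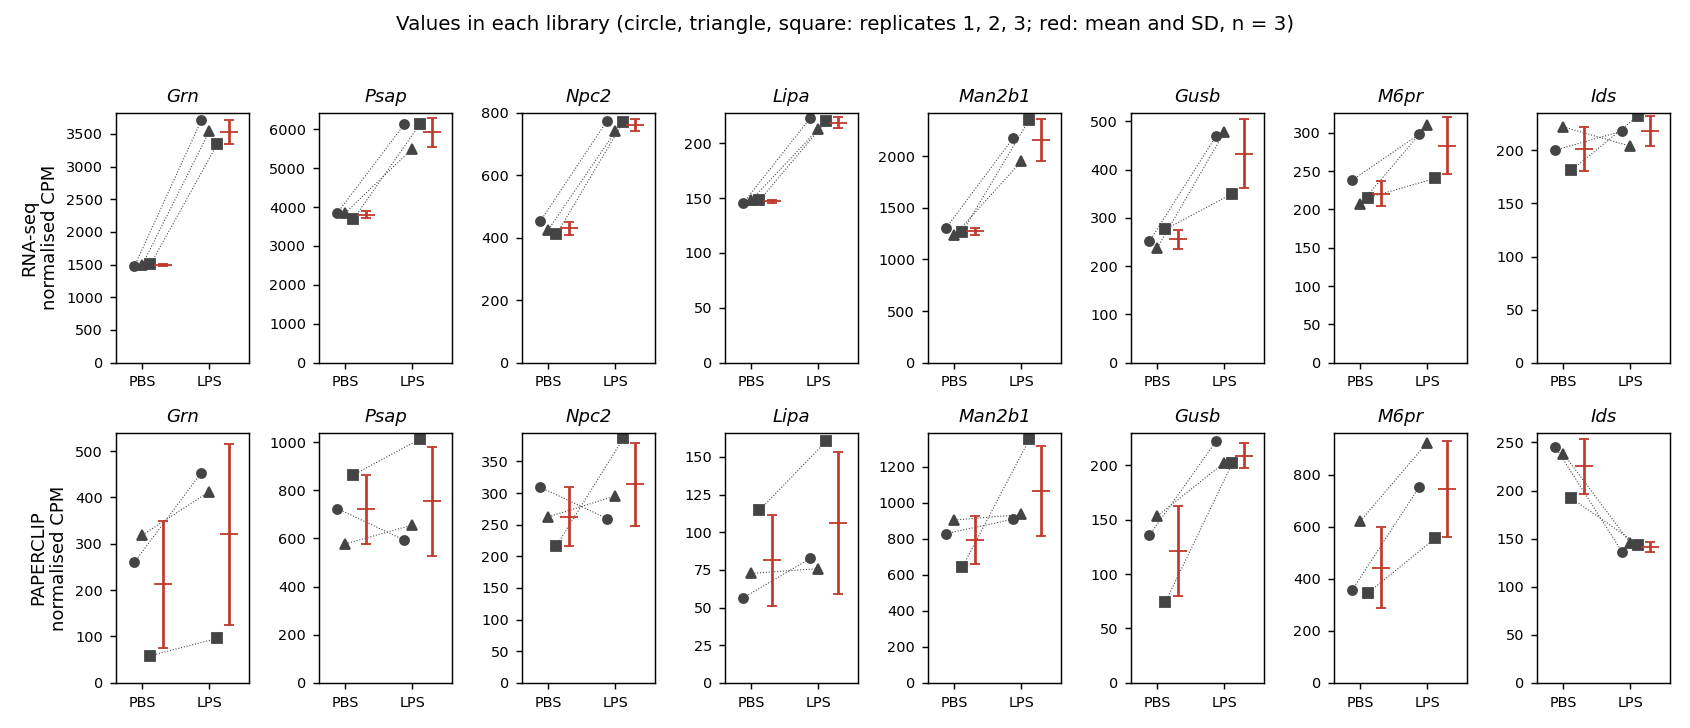
Normalised CPM of 8 of the genes in each library after PBS and LPS, for RNA-seq of isolated microglia (top) and Cx3cr1-Cre PAPERCLIP (bottom), with axes starting at 0; markers give replicates 1, 2 and 3, dotted lines join the same number, and red bars show the mean and SD (n = 3). Grn in RNA-seq goes from 1475 to 1504 CPM to 3347 to 3708 CPM, while in PAPERCLIP replicate 3 is low in both groups (58.8 and 96.1 CPM).

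In Cx3cr1-Cre PAPERCLIP, none of the 27 tested genes was called in either direction between LPS and PBS by edgeR, while 2.74% of the 5692 genes tested were called higher and 0.791% lower. DESeq2 called none either. At an unadjusted p under 0.05 there were 5 of 27, namely Ids, Gusb, M6pr, Arsb and Hexa, and 15.8% of all genes. The median log2 difference was 0.29 over the 27 genes and -0.01 over all. Gla, Galns, Cln3 and Tfeb had too few counts to be tested. Of the 27 genes tested in both assays, 20 (74.1%) had the same direction in PAPERCLIP as in RNA-seq, and of 5295 genes tested in both, 67.4% did.

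Libraries with the same replicate number deviated together in this experiment, so values with the replicate number as a block are given beside those without. With the block, M6pr, Gusb and Grn were higher after LPS and Ids and Arsb lower, 3 and 2 of the 27 genes, while 4.53% of all tested genes were higher and 2.9% lower. M6pr measured 358, 622 and 347 CPM after PBS and 753, 923 and 556 CPM after LPS; it was higher after LPS within each number (log2 difference 0.77, SE 0.17, adjusted p = 0.00425 with the block, and 0.75, SE 0.26, adjusted p = 0.145 without). Gusb measured 136, 153 and 74.3 CPM against 222, 202 and 202 CPM, without overlap (0.83, SE 0.22, adjusted p = 0.0196 with the block, and 0.81, SE 0.25, adjusted p = 0.11 without). Grn measured 260, 319 and 58.8 CPM against 453, 413 and 96.1 CPM. Replicate 3 was low in both groups and the groups overlapped (0.61, SE 0.18, adjusted p = 0.0474 with the block, and 0.62, SE 0.54, adjusted p = 0.634 without).

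The sulfatases Ids and Arsb had values below those after PBS. Ids measured 245, 238 and 192 CPM after PBS and 136, 145 and 144 CPM after LPS, without overlap (log2 difference -0.66, SE 0.19, adjusted p = 0.0323 with the block, and -0.67, SE 0.20, adjusted p = 0.0873 without). Arsb measured 792, 1353 and 1003 CPM against 676, 744 and 642 CPM, also without overlap (-0.58, SE 0.16, adjusted p = 0.0298 with the block, and -0.61, SE 0.21, adjusted p = 0.148 without). In isolated microglia neither gene was called, as given above, with Ids at 200, 222 and 181 CPM after PBS and 218, 204 and 233 CPM after LPS. Arsb there measured 311, 299 and 254 CPM against 304, 301 and 304 CPM. Both overlapped.

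The remaining genes followed individually were not called with or without the block. Psap measured 724, 577 and 864 CPM after PBS and 593, 656 and 1014 CPM after LPS (log2 difference 0.06, SE 0.23). Npc2 measured 309, 263 and 217 CPM against 260, 296 and 387 CPM (0.26, SE 0.22), and Lipa 56.6, 72.7 and 115 CPM against 82.6, 75.9 and 161 CPM (0.37, SE 0.34). Both overlapped, as did Psap. Npc1 measured 124, 101 and 108 CPM against 97.3, 99.6 and 76.6 CPM (-0.29, SE 0.23), without overlap, and Mcoln1 22.6, 20.2 and 37.2 CPM against 59.0, 30.0 and 42.6 CPM (0.71, SE 0.38), with overlap. Tfeb had 1 count after PBS and 9 after LPS. Microglial markers took 3.37% to 3.66% of counts after PBS and 2.84% to 3.29% after LPS in these libraries, and their part in the values was not tested. PBS replicate 3 carried the neuronal and hepatocyte markers given above. Without it and LPS replicate 3, none of the 27 tested genes was called, while 133 of all 5688 genes tested were higher and 29 lower.

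The difference between the assays in LPS response was tested directly in a fit of all 12 libraries. None of the 31 genes differed by edgeR, with 0.00984% of 10165 genes called as higher in RNA-seq and 0% as lower. At an unadjusted p under 0.05 there were 9.04% of all genes and 3 of the 31: Ids (difference of log2 differences 0.71, SE 0.20, adjusted p = 0.238), Arsb (0.61, SE 0.24, adjusted p = 0.429) and Npc2 (0.49, SE 0.23, adjusted p = 0.543). DESeq2 called Ids alone (0.74, adjusted p = 0.0207). The rise of Grn differed by 0.55 between the assays with an SE of 0.61 (adjusted p = 0.877), and with the replicate block by 0.56 with an SE of 0.21 (adjusted p = 0.305), so the assays are not shown to differ for Grn by either fit. The assays also differ in the mice, the tissue preparation and the cells captured, and these cannot be told apart.

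**Figure D4:**
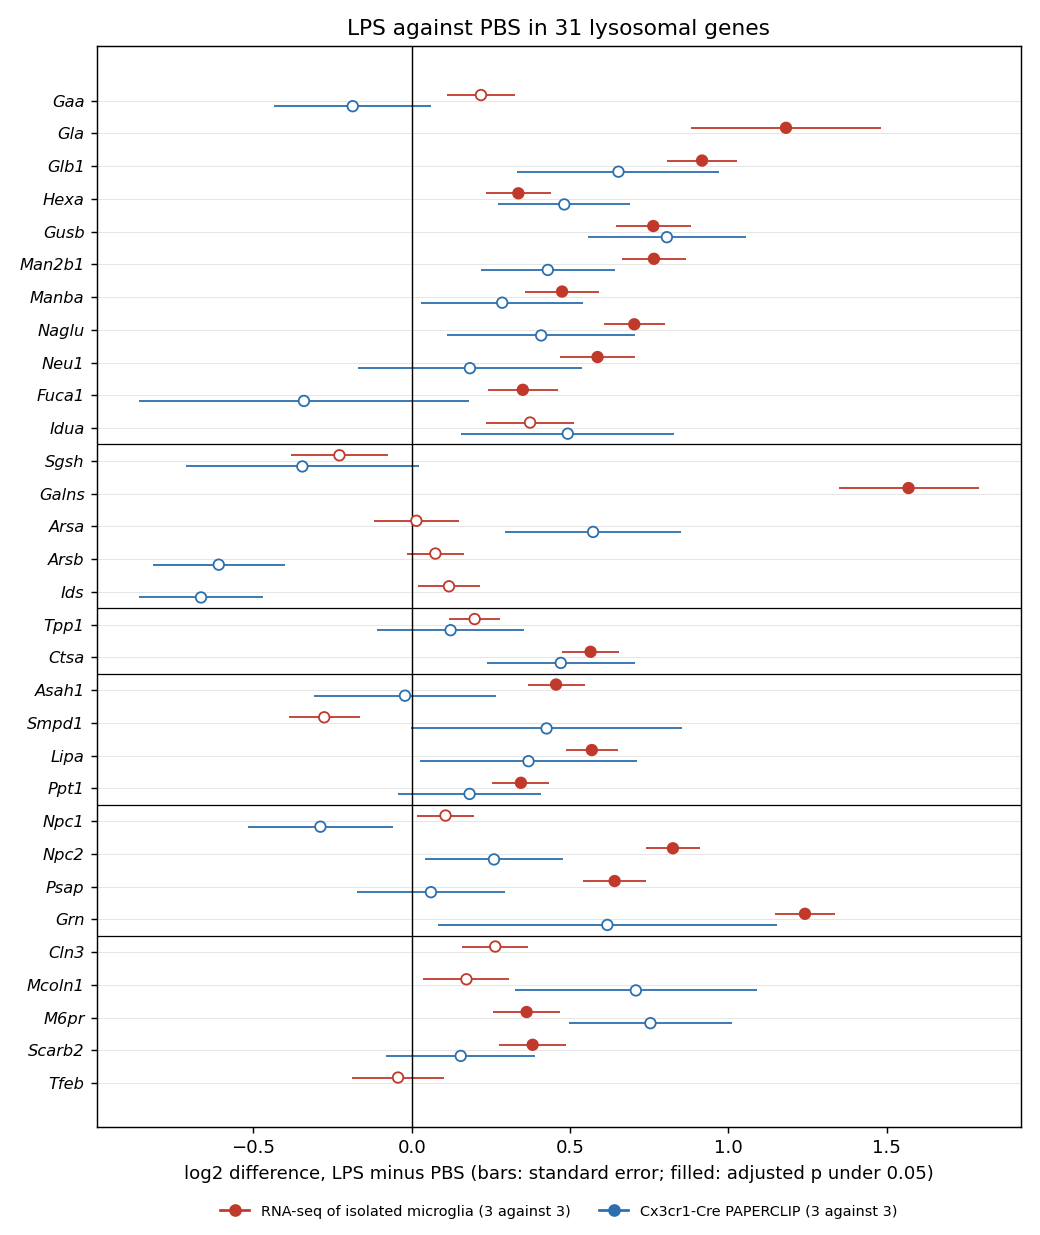
Log2 difference between LPS and PBS for each of the 31 genes (rows, in the same role groups), with bars for the standard error, in RNA-seq (red) and PAPERCLIP (blue), 3 against 3 libraries each; filled points passed an adjusted p of 0.05. In RNA-seq 19 points are filled and 28 lie above 0; in PAPERCLIP no point is filled and 27 genes are shown.

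Other lysosomal genes outside the set were counted from lists chosen by role. Of 24 further hydrolases and activators, 14 of 23 tested rose with LPS in isolated microglia (median log2 difference 0.46) and 1 fell. Among all genes tested there, 15.9% rose and 10.4% fell. Gm2a, the activator that presents the ganglioside GM2, rose from 244 ± 17.7 to 572 ± 31 CPM (SD, n = 3 each; log2 difference 1.23, adjusted p = 2.87e-06), and Acp5, an acid phosphatase, from 2.07 ± 0.47 to 63.2 ± 22.8 CPM (4.86, adjusted p = 3.73e-06). Among untreated cell types, 13 of 19 tested were higher in microglia than in cortex and none lower, and 8 were higher and 1 lower in Gfap than in neurons. The shares of all genes were 21.8% higher and 28% lower in microglia, and 31.3% higher and 29.3% lower in Gfap.

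V-ATPase subunits, which acidify the lysosome, differed in direction between the comparisons. With LPS in isolated microglia 7 of 16 tested rose and none fell, with Atp6v1b2 from 145 ± 8.56 to 266 ± 14.7 CPM (log2 difference 0.88, adjusted p = 2.45e-05). In untreated microglia 2 of 16 were higher and 8 lower than in cortex, against 21.8% and 28% of all genes. In Gfap 2 of 16 were higher and 11 lower than in neurons, against 31.3% and 29.3% of all genes, with Atp6v1g2 at 48.1 ± 11.6 CPM (n = 2) against 514 ± 29.5 CPM (n = 4). Genes for enzyme delivery and activation gave 3 higher and 1 lower of 16 with LPS, led by Cln6 (log2 difference 1.41, adjusted p = 0.000951). Nutrient signalling and TFEB family genes gave 3 higher and none lower of 13, led by Lamtor1 (0.61, adjusted p = 0.00462). For these LPS counts in isolated microglia, the shares of all genes were 15.9% higher and 10.4% lower. Of the 4 lists, none had a called gene with LPS in PAPERCLIP, where 2.74% of all tested genes were called higher and 0.791% lower.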

How the data were processed

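Each library was deposited as gene counts, whole numbers with no normalization, per the file headers. The submitters' processing notes name cutadapt, Novoalign, STAR and mm10. No source used here says whether barcoded duplicates were collapsed or strand was used, so counts of overlapping genes are uncertain (Glb1, Hexa, Sgsh, Galns, Asah1, Npc1, Ppt1, Cln3, Idua and Ctsa overlap another protein-coding gene). Groups came from sample titles. The labels do not say that replicates are separate animals except for the knockout cortex, so the p-values rest on variation among libraries that may be technical. Replicate pairs had a chi-square per degree of freedom of 2.10 or more.

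Counts were fitted with edgeR 4.0.16 (R 4.3.3): filterByExpr, TMM, quasi-likelihood tests, and Benjamini-Hochberg adjustment over all genes. The 3 cell type comparisons came from 1 fit of 8 untreated libraries, LPS against PBS from 6 libraries per assay, and the difference between assays from 12 libraries joined by symbol. Alternatives were RLE, total counts, a minimum of 5 CPM, no minimum, DESeq2 1.42.0, the replicate number as a block, a term for file-name prefixes, all 14 tagged brain libraries, thinning, and leaving out libraries. The code was tested on simulated counts.

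For genes at 20 CPM or more, LPS and PBS libraries of the same number had correlated deviations from their group means, at 0.13, 0.23 and 0.18 in PAPERCLIP and 0.11, 0.10 and 0.19 in RNA-seq. Between different numbers, the PAPERCLIP correlations were -0.176 to -0.029. In RNA-seq, PBS replicate 1 with LPS replicate 2 was also at 0.10, so replicates 1 and 2 were not told apart there. Deviations from a group mean cancel within the group, so values between different numbers are not independent of those within a number. The labels state no pairing. Whether libraries of the same number share a source was therefore not settled, and the block is given as an alternative only.

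The members and lists were chosen with earlier results of these data known. Values in every library are given for up to 6 called genes with the smallest p per direction and comparison, for Tfeb, Mcoln1, M6pr, Npc1, Npc2, Lipa, Grn and Psap, and for genes chosen after their values were seen (Hexa, Arsa, Scarb2, Smpd1, Ids and Arsb with LPS, and Ctsa). Other lists are given by counts and up to 2 called genes. Lists of markers are named where they are used. The values of a gene on another list are not reported here.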

Additional observations from a re-analysis of the deposited data

How the results depend on the processing

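For the 65 gene values chosen by the rule for named genes, 1036 values came from an alternative. Of these, 955 kept their direction and side of the threshold, 39 lost a call, 8 gained one, 33 changed sign without a call and 1 reversed. Over all 63 calls among the set, 94 of 978 values under an alternative lost the call, and 2 of these changed sign, Npc1 and Manba (-0.40), both in microglia against cortex without Cx3cr1 replicate 1. The reversal was Npc1 in microglia against cortex, at -1.01 without Cx3cr1 replicate 1 (range over libraries left out -1.01 to 2.44). Thinning to the shallowest library gives fewer counts by construction, and left 18 genes of the set and 4466 genes in all tested between cell types. Camk2a against Gad2 then had 0 of the 18 higher and 1 lower, with 264 and 238 of all genes. Gfap against neurons had 6 of the 18 higher and 2 lower, with 1142 and 1090 of all genes. Leaving out 1 library gave 0 to 2 higher and 1 to 8 lower for Camk2a against Gad2, and 2 to 4 lower for Gfap against neurons. LPS against PBS in PAPERCLIP gave 3 higher and 2 lower with the replicate block, 2 higher with the prefix term and 2 higher with no filter. In RNA-seq, total counts gave 1 lower, and DESeq2 called 1 gene as differing between assays. The cause of these changes was not tested. The replicate block left the counts of the other comparisons as they were; in the cell type comparisons the libraries share only a number (correlations up to 0.066), and with the block Hexa lost its call in Gfap and Arsb gained one. Depth limits Smpd1, Sgsh, Grn, Gusb, Fuca1 and Hexa, which had few counts in at least 1 group.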

Other observations

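Embryonic Ptbp2-KO cortex and liver belong to no comparison and are given as plain CPM of the library total. In the 3 knockout libraries the 31 genes took 0.139%, 0.139% and 0.120% of counts. Psap was at 345, 334 and 273 CPM, Scarb2 at 208, 216 and 203 CPM and Ids at 197, 219 and 183 CPM, while Grn was at 21.1, 23.6 and 17.3 CPM and Tfeb at 1.40, 1.46 and 1.34 CPM. No knockout control was analysed here.

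In the single liver library, of 115734 counts, the set held 215 counts, or 0.186% (95% exact Clopper-Pearson interval 0.162% to 0.212%, which covers counting error only). Arsa was at 441 CPM, M6pr at 277 CPM, Tpp1 at 182 CPM, Ctsa at 138 CPM and Lipa at 104 CPM. Grn, Gusb, Glb1, Idua, Cln3, Galns and Tfeb had 0 counts, which allows up to 25.9 CPM.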
